A study of Mus musculus with 16 samples.

Results

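The RNA levels of 10 genes of the Lin28 and let-7 axis were followed in cultured mouse embryonic stem cells (ESCs). The genes are Lin28a and Lin28b and 8 classic let-7 targets of stem and fetal cells, namely Hmga1, Hmga2, Igf2bp1, Igf2bp2, Igf2bp3, Trim71, Mycn and Myc. They were chosen by name, are 10 of the 26127 genes in the deposited table, and all 10 were found there by symbol. let-7 is a family of microRNAs that the enzyme Dicer cuts from hairpin precursors and that lowers its target messages by pairing of its seed with their 3′ untranslated regions (UTRs). LIN28A and LIN28B bind let-7 precursors and hold back their maturation, and both are themselves let-7 targets, so that Lin28 and let-7 oppose each other. Undifferentiated ESCs are known for high Lin28a and little mature let-7, while the miR-290 family makes up much of their microRNA.

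Total RNA was sequenced after removal of ribosomal RNA, in 16 libraries. Of these, 8 were wildtype (WT), 4 lacked Dnmt1 (Dnmt1 KO), the enzyme that maintains DNA methylation, and 4 lacked both Dicer and Dnmt1 (Dicer/Dnmt1 KO). A Dicer knockout on its own was not analysed here, so an effect of losing Dicer could be read only beside loss of Dnmt1. The labels give the E14 background for all 3 groups, whereas the methods describe a floxed Dnmt1 parent of another strain for the knockouts. They describe both constitutive and conditional Dicer knockouts made with CRISPR from that parent, and neither the labels nor the methods tie a library to one of them, to a clone or to a time after deletion. Each library has a number and a letter, A or B, and nothing says that numbers or letters were separate cultures. The p-values below therefore measure only the spread between libraries, which may be technical.

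The seed shared by the let-7 family is the sequence on which the choice of these genes rests, so it is shown first. The mature microRNAs were taken from RefSeq (table of assembly GRCm38.p6). Capitals mark the seed, bases 2 to 8, which 11 mature sequences in that table shared, and 3 of them stand for the family here. A member of the miR-290 family is printed for comparison.
let-7a: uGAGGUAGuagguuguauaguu
let-7g: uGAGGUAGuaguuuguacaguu
miR-98: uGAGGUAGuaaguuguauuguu
miR-294: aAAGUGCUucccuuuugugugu

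A seed match was the letters CTACCTC in the sense strand of the longest annotated 3′ UTR of a gene (GENCODE M1, build NCBIM37). It was called an 8mer where an A followed. Of the 10 genes, 8 (80%) held at least 1 match and 7 held an 8mer, 19 matches in all, beside 10.7% of 12331 tested genes with an annotated UTR that held a match and 3.77% that held an 8mer. Since the genes were named as let-7 targets, this describes the choice and is no finding. Hmga2, Igf2bp1 and Lin28b held 4 matches each, Lin28a and Trim71 held 2 each, and Hmga1, Igf2bp2 and Igf2bp3 held 1 each. Mycn and Myc held none in the UTR searched, which says only that these letters are absent from 910 and 466 bases. The match of the miR-290 family, AGCACTT, was present once each in Lin28b, Igf2bp1 and Mycn, beside 16.7% of all genes tested. No such match was held by 94.9% of genes with UTRs under 1 kb. At 4 kb or more, the class of Lin28b and Igf2bp1, that share was 48.0%. The stretches printed end with the matched letters in capitals and come from the genes whose levels are followed most closely below.
Lin28a, chr4:133561104-133561133, minus strand: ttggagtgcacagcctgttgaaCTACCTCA
Lin28a, chr4:133560466-133560495, minus strand: atgctttgagatcgccacaaacCTACCTCA
Lin28b, chr10:45100828-45100857, minus strand: tcccttcacccgggcgggaagtCTACCTCA
Hmga2, chr10:119801280-119801309, minus strand: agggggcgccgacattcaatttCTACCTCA
Igf2bp1, chr11:95823092-95823121, minus strand: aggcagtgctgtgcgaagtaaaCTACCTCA
Igf2bp2, chr16:22059546-22059575, minus strand: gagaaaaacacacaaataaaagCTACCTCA
Igf2bp3, chr6:49036786-49036815, minus strand: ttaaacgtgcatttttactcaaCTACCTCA
Trim71, chr9:114421590-114421619, minus strand: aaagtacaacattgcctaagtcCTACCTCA
Each of these sites lay within 1 exon. In Lin28b the 8mer began at base 36 of the annotated UTR and in Hmga2 at base 58, while the Igf2bp2 8mer began 472 bases before the end of the UTR.

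Levels are log2 RPM as deposited, that is the log2 of a gene's reads scaled to the reads of its library (RPM), and differences between groups are log2 fold changes fitted with limma over all 12892 tested genes with Benjamini-Hochberg (BH) adjusted p-values. A gene is said to have risen or fallen where its adjusted p was under 0.05. The libraries held 31.5 to 52.5 M reads. Every one of the 10 genes had at least 80 reads in each library, which for Myc leaves a counting error of 11.2% and for the others one of 1.45% to 5.86% at their lowest. Dnmt1 itself lay between 5.55 and 7.66 in WT, between 4.17 and 4.63 in Dnmt1 KO and between 4.49 and 4.64 in Dicer/Dnmt1 KO, and Dicer1 between 4.56 and 5.68, 5.28 and 5.68, and 3.68 and 4.06 in the same order. WT 4A and 4B stood apart from the other WT libraries: Dnmt1 was 5.69 and 5.55 there, and genes of ribosomal proteins took 9.82% and 10.3% of their gene reads, beside 4.98% to 8.11% in the other 14 libraries. Test results that turn on these 2 libraries are given with and without them, while ranges and counts of overlap include them. All 8 markers of ESCs, Nanog and Pou5f1 among them, were detected in all libraries, and their summed level was 1577 to 2412 RPM in WT, 1334 to 1795 in Dnmt1 KO and 1544 to 1635 in Dicer/Dnmt1 KO.

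Lin28a fell in the cells that lacked both Dicer and Dnmt1, while no change of Lin28b passed the test. Lin28a (ENSMUSG00000050966, chromosome 4, 133559245 to 133574756, minus strand) was 7.25 at the lowest, 7.49 at the median and 7.64 at the highest in the 8 WT libraries. It was 7.25, 7.29, 7.30 and 7.24 in the Dnmt1 KO libraries, and 6.20, 6.20, 5.96 and 6.03 in the Dicer/Dnmt1 KO libraries. All 4 Dicer/Dnmt1 KO libraries lay more than 1 log2 unit below every other library. Dnmt1 KO lay at the low end of WT and overlapped it only through WT 4A and 4B, at 7.25 and 7.26. In Dicer/Dnmt1 KO, Lin28a fell to 0.388 of its WT level, a log2 fold change of -1.37 with an SE of 0.08 (limma, BH adjusted p = 6.2e-10). Between the knockouts it fell to 0.443 of the level, a log2 fold change of -1.18 with an SE of 0.10 (adjusted p = 1.73e-07). In Dnmt1 KO against WT it was -0.19 (SE 0.08, adjusted p = 0.08), which did not pass. Without WT 4A and 4B, the 2 WT libraries with the lowest Lin28a, that difference was -0.26 and passed (adjusted p = 0.00755). The summed level of 6 markers of the primed epiblast was also lowest in Dicer/Dnmt1 KO. It was 74.4 to 80.8 RPM there, 89.8 to 172 in WT and 150 to 183 in Dnmt1 KO, with each of the 6 above 3 reads in at least 1 library of every group. Dnmt3b, with a mean log2 RPM of 6.37, 7.05 and 6.06 in WT, Dnmt1 KO and Dicer/Dnmt1 KO, made up most of that sum, and Lef1 (1.08, 2.76 and 1.68) and Sox3 (-1.35, -0.73 and -1.20) were not lowest in Dicer/Dnmt1 KO. The sum of neural markers was 30.7 to 41.1 RPM in Dicer/Dnmt1 KO beside 14.9 to 22.5 in WT and 18.8 to 21.0 in Dnmt1 KO over the 4 of 6 genes in the table, of which Neurog2 was at 3 reads or fewer in all libraries. Most of it was Tubb3 (3.81, 4.02 and 4.95 in the same order), and Neurod1 was 1.31, 1.52 and 1.22. The sums of mesoderm markers overlapped between all groups (4.32 to 6.58 RPM), with Eomes at 1.84, 1.74 and 1.54, but T went from -0.14 in WT to -4.17 in Dicer/Dnmt1 KO and Hand1 from -2.23 to 0.83. The part of any such cells in the fall of Lin28a was not tested. Lin28a shares 695 bases with the antisense gene Gm13061, and the sources used here do not say whether counting used the strand.

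Lin28b, the paralog of Lin28a, kept its level within a narrow range. Lin28b (ENSMUSG00000063804, chromosome 10, 45096426 to 45206201, minus strand) measured 4.81 at the lowest, 5.02 at the median and 5.27 at the highest in WT. It measured 5.10, 5.03, 5.16 and 5.08 in Dnmt1 KO and 5.17, 5.12, 5.17 and 5.29 in Dicer/Dnmt1 KO. The 3 groups overlapped throughout. Its differences from WT were 0.08 in Dnmt1 KO (95% interval -0.08 to 0.24, limma BH adjusted p = 0.432) and 0.17 in Dicer/Dnmt1 KO (0.01 to 0.34, adjusted p = 0.0589), and the difference between the knockouts was 0.09 (-0.09 to 0.28, adjusted p = 0.432). None passed, although leaving out WT 1A or WT 1B brought the change in Dicer/Dnmt1 KO against WT to 0.19 (adjusted p = 0.0467) or 0.21 (adjusted p = 0.0158). With WT numbers 3 and 4 only, that change was 0.18 and also passed (adjusted p = 0.0317). All 3 differences turned negative when the trend of change with transcript length was removed, to between -0.09 and -0.02. On the scale of reads per kilobase of transcript, Lin28a was 7.25 to 9.38 times as high as Lin28b in the WT libraries, 6.83 to 7.35 times in Dnmt1 KO and 2.57 to 3.26 times in Dicer/Dnmt1 KO.

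**Figure D1:**
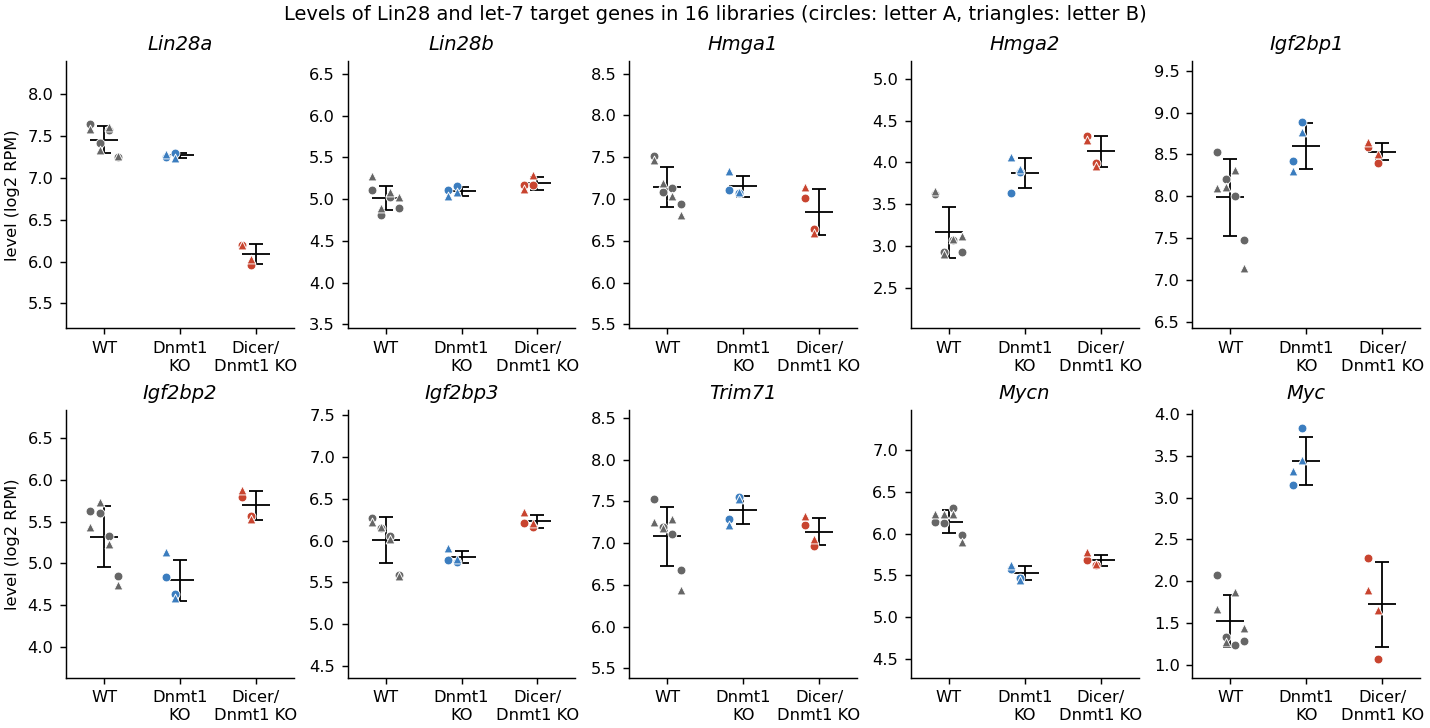
Level of each of the 10 genes in log2 RPM (vertical axis, 3.2 log2 units in each panel) in the 16 libraries, by group. Circles are letter A and triangles letter B libraries, placed from left to right by number, and bars give the mean ± SD. Lin28a sits between 5.96 and 6.20 in Dicer/Dnmt1 KO, below all other libraries, and Myc between 3.15 and 3.83 in Dnmt1 KO, above all others.

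The high mobility group genes differed between the paralogs. Hmga1 and Hmga2 encode small chromatin proteins that bind AT-rich DNA, and Hmga2 is the textbook let-7 target. Hmga2 (ENSMUSG00000056758, chromosome 10, 119798331 to 119913525, minus strand) was 2.91, 3.07 and 3.66 at the lowest, median and highest in WT. It was 3.63, 4.06, 3.89 and 3.92 in Dnmt1 KO and 4.32, 4.26, 3.99 and 3.95 in Dicer/Dnmt1 KO. Each Dicer/Dnmt1 KO library exceeded each WT library, whereas the lowest Dnmt1 KO library lay just under WT 1B. Hmga2 rose by 0.71 in Dnmt1 KO (SE 0.15, limma BH adjusted p = 0.000767) and by 0.97 in Dicer/Dnmt1 KO (adjusted p = 2.09e-05) against WT. Between the knockouts it differed by 0.26 (95% interval -0.10 to 0.61, adjusted p = 0.244), so a rise with the added loss of Dicer was not established. Hmga2 overlaps noncoding genes on the opposite strand over 20180 and 3271 bases.

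A list of 8 fibroblast markers moved with Hmga2, which is also expressed in mesenchymal cells. Its summed level was 29.4 to 53.3 RPM in WT, 61.2 to 77.8 in Dnmt1 KO and 63.3 to 116 in Dicer/Dnmt1 KO, most of it from collagen genes. Lum was at 3 reads or fewer in every WT and Dicer/Dnmt1 KO library and Fap in every Dnmt1 KO library, and Dcn had a mean log2 RPM of -2.65, -1.88 and -2.86 in the 3 groups. The methods describe culture with or without feeder cells, and nothing ties a library to either. The part of such cells or of feeders in the rise of Hmga2 was not tested. In bulk RNA, more cells of a kind and more RNA per cell cannot be told apart.

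Hmga1 (ENSMUSG00000046711, chromosome 17, 27693565 to 27700619, plus strand) stood at 6.81, 7.11 and 7.51 at the lowest, median and highest in WT. It stood at 7.11, 7.33, 7.07 and 7.08 in Dnmt1 KO and at 7.02, 7.15, 6.64 and 6.59 in Dicer/Dnmt1 KO. The number 2 libraries of Dicer/Dnmt1 KO lay below all others, and the number 1 libraries lay within the range of WT. The changes were 0.005 in Dnmt1 KO (limma BH adjusted p = 0.981) and -0.30 in Dicer/Dnmt1 KO against WT (adjusted p = 0.0523), and -0.30 between the knockouts (adjusted p = 0.12). The second passed without WT 4A and 4B (-0.39, adjusted p = 0.00846) and also when only 1 of WT 4A, WT 4B, Dicer/Dnmt1 KO 1A and 1B was left out (adjusted p = 0.0387, 0.0198, 0.0454 and 0.0196). The sign in Dnmt1 KO turned without WT 4A and 4B (-0.09). Hmga1 has processed pseudogene copies elsewhere in the genome, so its reads are uncertain where the authors' filter on mapping quality removed them. Per kilobase, Hmga1 exceeded Hmga2 26.1 to 39.3 times in WT, 17.9 to 22.4 times in Dnmt1 KO and 12.5 to 14.8 times in Dicer/Dnmt1 KO.

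The 3 Igf2bp genes encode RNA-binding proteins of fetal tissue that stabilise and localise messages, Igf2 messages among them. Igf2bp2 and Igf2bp3 were higher in Dicer/Dnmt1 KO than in Dnmt1 KO, while Igf2bp1 was higher in both knockouts than in WT. Igf2bp2 (ENSMUSG00000033581, chromosome 16, 22059082 to 22163372, minus strand) measured 4.74, 5.39 and 5.73 at the lowest, median and highest in WT. The Dnmt1 KO libraries measured 4.83, 5.14, 4.63 and 4.59 and the Dicer/Dnmt1 KO libraries 5.80, 5.88, 5.57 and 5.53. The knockouts did not overlap, and WT overlapped both. It overlapped Dnmt1 KO only through WT 4A and 4B, the lowest at 4.85 and 4.74. Igf2bp2 was 0.90 higher in Dicer/Dnmt1 KO than in Dnmt1 KO (SE 0.19, limma BH adjusted p = 0.0015), a fold of 1.87. It fell by 0.52 in Dnmt1 KO against WT (adjusted p = 0.0169) and differed by 0.38 in Dicer/Dnmt1 KO against WT (adjusted p = 0.0567). Without WT 4A and 4B these were -0.70 (adjusted p = 0.000109) and 0.20 (adjusted p = 0.141). With A and B averaged to 1 replicate, neither the difference between the knockouts (adjusted p = 0.0605) nor the fall in Dnmt1 KO (adjusted p = 0.145) passed. The fall was also lost without Dnmt1 KO 2A (-0.47, adjusted p = 0.0646) or 2B (-0.45, adjusted p = 0.0689), and the change in Dicer/Dnmt1 KO against WT passed without WT 1A (0.42, adjusted p = 0.0334), 2A (0.42, adjusted p = 0.0402) or 2B (0.43, adjusted p = 0.0271).

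Igf2bp3 (ENSMUSG00000029814, chromosome 6, 49035220 to 49164953, minus strand) showed the same order at a smaller size. Its levels were 5.58, 6.11 and 6.27 at the lowest, median and highest in WT. They were 5.77, 5.91, 5.75 and 5.79 in Dnmt1 KO and 6.21, 6.35, 6.16 and 6.21 in Dicer/Dnmt1 KO. The knockouts did not overlap, and both lay within or just above the range of WT. Dnmt1 KO lay within it only through WT 4A and 4B, at 5.59 and 5.58, and below every other WT library. The difference between the knockouts was 0.43 (SE 0.14, limma BH adjusted p = 0.0213). It was lost with A and B averaged (adjusted p = 0.198) and without Dicer/Dnmt1 KO 1B (0.39, adjusted p = 0.0633). Against WT it differed by -0.20 in Dnmt1 KO (adjusted p = 0.186) and 0.22 in Dicer/Dnmt1 KO (adjusted p = 0.106). The former passed without WT 4A and 4B (-0.34, adjusted p = 0.000458) and without WT 4B alone (-0.26, adjusted p = 0.0429), and the latter was then 0.08 without both. It shares 1531 bases with 2410003K15Rik on the opposite strand.

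Igf2bp1 (ENSMUSG00000013415, chromosome 11, 95818477 to 95867254, minus strand) was the gene of the 10 with the most RPM in each group. It was 7.14, 8.10 and 8.54 at the lowest, median and highest in WT. Dnmt1 KO had 8.43, 8.31, 8.89 and 8.77 and Dicer/Dnmt1 KO 8.59, 8.64, 8.40 and 8.51. The low WT values were those of WT 4A and 4B, and the knockouts overlapped with the upper WT libraries. Igf2bp1 rose by 0.61 in Dnmt1 KO (SE 0.20, limma BH adjusted p = 0.0183) and by 0.55 in Dicer/Dnmt1 KO (SE 0.20, adjusted p = 0.0218) against WT, which became 0.39 (adjusted p = 0.0107) and 0.32 (adjusted p = 0.0214) without WT 4A and 4B. The rise in Dnmt1 KO was lost without Dnmt1 KO 2A (0.52, adjusted p = 0.0806) or 2B (0.56, adjusted p = 0.0646), and that in Dicer/Dnmt1 KO without Dicer/Dnmt1 KO 1A (0.53, adjusted p = 0.053) or 1B (0.51, adjusted p = 0.0601). Both were lost with A and B averaged (adjusted p = 0.138 and 0.119), and the second with the trend of length removed (0.10, adjusted p = 0.408). The knockouts differed by -0.06 (95% interval -0.54 to 0.41, adjusted p = 0.846).

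Trim71, or Lin41, encodes a ubiquitin ligase and RNA-binding protein of early embryos and was among the first let-7 targets found in worms. Trim71 (ENSMUSG00000079259, chromosome 9, 114420393 to 114473487, minus strand) was 6.44, 7.18 and 7.52 at the lowest, median and highest in WT. It was 7.29, 7.22, 7.55 and 7.53 in Dnmt1 KO and 7.22, 7.32, 6.96 and 7.04 in Dicer/Dnmt1 KO. All 3 groups overlapped, with WT 4A and 4B again the lowest at 6.68 and 6.44. No change passed: it was 0.31 in Dnmt1 KO (95% interval -0.01 to 0.64, limma BH adjusted p = 0.114) and 0.06 in Dicer/Dnmt1 KO (-0.27 to 0.38, adjusted p = 0.77) against WT, and -0.26 between the knockouts (-0.63 to 0.12, adjusted p = 0.271). Without WT 4A and 4B the last just passed (adjusted p = 0.0489), and the value in Dicer/Dnmt1 KO against WT turned to -0.12. The first passed without WT 1A (0.38, adjusted p = 0.0421). Trim71 carries a pair of let-7 8mers, which begin at bases 166 and 262 of a UTR of 1370 bases. Its level in the cells without Dicer lay within the range of all 8 WT libraries. Dicer/Dnmt1 KO 2A and 2B, at 6.96 and 7.04, lay below every WT library other than 4A and 4B.

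Myc and Mycn, which encode related transcription factors of growth and self-renewal, moved in opposite directions in Dnmt1 KO. Myc (ENSMUSG00000022346, chromosome 15, 61816946 to 61821929, plus strand) was low in WT, with 1.24, 1.38 and 2.08 at the lowest, median and highest. It was 3.15, 3.32, 3.83 and 3.45 in Dnmt1 KO and 2.28, 1.89, 1.06 and 1.65 in Dicer/Dnmt1 KO. Every Dnmt1 KO library lay above every library of the other groups, and Dicer/Dnmt1 KO overlapped WT. Myc rose by 1.91 in Dnmt1 KO (SE 0.20, limma BH adjusted p = 1.1e-06), a fold of 3.77, on 291 to 526 reads a library. It was lower by 1.71 in Dicer/Dnmt1 KO than in Dnmt1 KO (-1.71, SE 0.23, adjusted p = 3.27e-05), and Dicer/Dnmt1 KO differed from WT by 0.20 (95% interval -0.23 to 0.63, adjusted p = 0.397). Markers of primitive endoderm were, as a sum, also highest in Dnmt1 KO, and their sums in WT and Dicer/Dnmt1 KO overlapped. Their summed level over 6 genes was 9.24 to 16.2 RPM in WT, 29.9 to 41.9 in Dnmt1 KO and 13.3 to 18.7 in Dicer/Dnmt1 KO, with each of the 6 above 3 reads in at least 1 library of every group. Gata4, with a mean log2 RPM of 1.796, 2.773 and 1.621 in WT, Dnmt1 KO and Dicer/Dnmt1 KO, was lowest in Dicer/Dnmt1 KO. Sox17 (-0.64, 1.22 and 0.82) and Foxa2 (-2.61, 0.27 and 0.05) stayed nearer to Dnmt1 KO there, unlike Myc. The means of Gata6, Sox7 and Dab2 were also highest in Dnmt1 KO and lowest in WT. The part of primitive endoderm cells in the level of Myc was not tested.

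Mycn (ENSMUSG00000037169, chromosome 12, 12942902 to 12948720, minus strand) was 5.90, 6.18 and 6.31 at the lowest, median and highest in WT. The 4 Dnmt1 KO libraries were at 5.57, 5.62, 5.47 and 5.45 and the Dicer/Dnmt1 KO libraries at 5.69, 5.78, 5.62 and 5.63. Both knockouts lay wholly below WT. Mycn fell by 0.62 in Dnmt1 KO (SE 0.08, limma BH adjusted p = 5.9e-06) and by 0.46 in Dicer/Dnmt1 KO (adjusted p = 5.36e-05). The knockouts also did not overlap, but their difference of 0.15 did not pass (adjusted p = 0.183). Per kilobase, Mycn was 14.6 to 29.3 times as high as Myc in WT, 2.73 to 4.70 times in Dnmt1 KO and 9.29 to 20.6 times in Dicer/Dnmt1 KO.

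**Figure D2:**
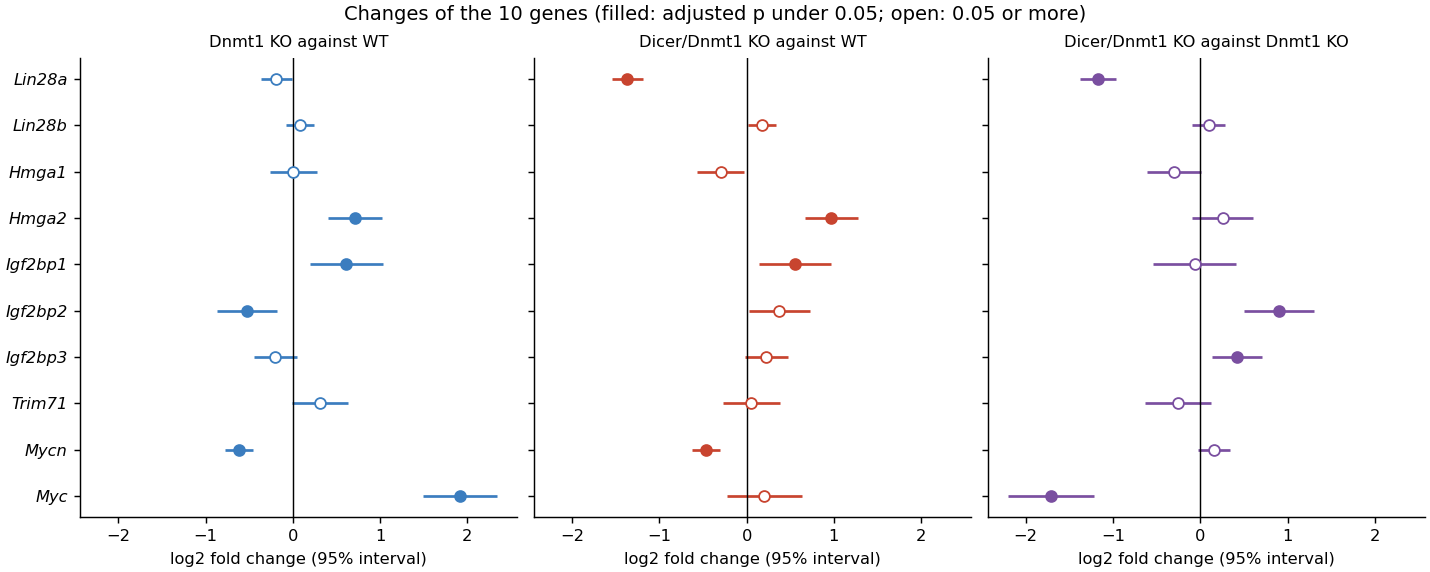
Log2 fold change of each of the 10 genes (horizontal axis) with its 95% interval from limma, in the 3 comparisons. Filled points had an adjusted p under 0.05: 5 genes in Dnmt1 KO against WT, 4 in Dicer/Dnmt1 KO against WT and 4 between the knockouts, with Lin28a at -1.18 and Myc at -1.71 farthest to the left in the last.

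Counted together, the 10 genes did not shift in 1 direction in any comparison. The comparisons with WT share the WT libraries, and the last shares Dnmt1 KO with the first, so their counts are not independent. In Dnmt1 KO against WT, Hmga2, Igf2bp1 and Myc rose and Igf2bp2 and Mycn fell, that is 5 of 10. Of all genes tested 41% were called, 23.5% higher and 17.5% lower. The groups did not overlap in 2 of the 10 (Mycn and Myc) and in 23.2% of all genes. Lin28a, Igf2bp2 and Igf2bp3 overlapped here only through WT 4A and 4B, and the share of all genes without these libraries was not counted. In Dicer/Dnmt1 KO against WT, Hmga2 and Igf2bp1 rose and Lin28a and Mycn fell, 4 of 10 beside 61.9% of all genes (31.9% higher and 30.1% lower). Here 3 of the 10 did not overlap (Lin28a, Hmga2 and Mycn), beside 41.4%. In Dicer/Dnmt1 KO against Dnmt1 KO, Igf2bp2 and Igf2bp3 rose and Lin28a and Myc fell, 4 of 10 beside 36.3% (16.9% higher and 19.4% lower). The labels of these groups differ only in Dicer, but clone and time after deletion are not given and may differ too. In 5 of the 10 the groups did not overlap, beside 43.2%. The median change of the 10 genes was 0.04, 0.19 and 0.02 in the 3 comparisons, beside 0.04, 0.02 and -0.01 over all genes. Without WT 4A and 4B, 7, 5 and 5 of the 10 were called in the 3 comparisons, beside 44.9%, 61.2% and 44.8% of all genes.

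Among other let-7 targets both rises and falls were found in the cells without Dicer. Of a list of 25 further textbook targets, 24 were in the table and all of these were tested. A let-7 match in the 3′ UTR was held by 18 of the 24 (75%), beside 10.7% of all genes tested. A miR-290 family match was held by 11 (45.8%), beside 16.7%. The let-7 share again describes the choice, and neither share was matched for UTR length. Among genes with UTRs under 1 kb, 96.1% held no let-7 match and 94.9% no miR-290 family match. Among those of 4 kb or more these shares were 68.9% and 48.0%. Between the knockouts 7 rose and 4 fell, beside 16.9% and 19.4% of all genes, with a median of 0.29, and 15 of 24 did not overlap, beside 43.2%. Most genes of this list have transcripts of 4 kb or more, and it was not matched for length. Over all genes the median change was 0.14 at 4 to 8 kb and 0.30 at 8 kb or more. With the trend of change with transcript length removed, 11 of the 24 passed. Plagl2, a zinc finger transcription factor, rose from a mean log2 RPM of 3.01 to 4.33, by 1.32 (SE 0.28, limma, BH adjusted p = 0.00151), and Onecut2, a homeodomain factor, by 0.96 (SE 0.25, adjusted p = 0.0059), from 0.75 to 1.72. Gatm, an enzyme of creatine synthesis, fell by 0.90 (adjusted p = 0.0103) and Nras, a small GTPase, by 0.82 (adjusted p = 6.05e-06). Against WT, Dicer/Dnmt1 KO had 11 higher and 6 lower of 24, beside 31.9% and 30.1% of all genes, with a median of 0.33 and 13 not overlapping, beside 41.4%. Over all genes the median there was 0.23 at 4 to 8 kb and 0.49 at 8 kb or more. The largest rises were those of Igdcc3, a cell surface protein of the immunoglobulin superfamily, by 2.01 (adjusted p = 1.06e-05) and Ccnd2, cyclin D2, by 1.80 (adjusted p = 3.67e-06). Nras fell by 0.96 (limma BH adjusted p = 3.3e-08). Plagl2, Onecut2 and Nras held matches of both families, Igdcc3 and Gatm of let-7 only, and Ccnd2 of the miR-290 family only.

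In Dnmt1 KO against WT the same list had 4 higher and 4 lower of 24, beside 23.5% and 17.5% of all genes, with a median of 0.11 and 4 not overlapping, beside 23.2%. Ccnd2 rose by 1.66 (limma BH adjusted p = 2.05e-05) and Ccnd1, cyclin D1, by 0.88 (adjusted p = 3.4e-07), while Bach1, a repressor of haem oxygenase, fell by 0.25 (adjusted p = 0.0109). Igdcc3 also rose, by 1.45 (adjusted p = 0.000517), with groups that overlapped. The rises of Igdcc3, Ccnd2 and Ccnd1 were thus already present with Dicer intact. Ccnd1, like Ccnd2, held a miR-290 family match and no let-7 match, and Bach1 held both kinds. Between the knockouts Igdcc3 differed by 0.55 (adjusted p = 0.192), Ccnd2 by 0.14 (adjusted p = 0.705) and Ccnd1 by 0.32 (adjusted p = 0.0159). With A and B averaged, 3 of 24 passed in Dnmt1 KO against WT, 14 in Dicer/Dnmt1 KO against WT and 4 between the knockouts. These took the place of 8, 17 and 11. Of all 12892 genes 2288, 5134 and 1225 passed in that setting, in place of 5289, 7985 and 4682.

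Among 16 genes of let-7 processing and of small RNA function, the 2 that rose most in the cells without Dicer, Eif2c1 and Tnrc6a, encode partners in silencing. Dicer1 itself fell by 1.59 between the knockouts (SE 0.20, limma BH adjusted p = 1.48e-05) and by 1.40 against WT. Eif2c1 (Ago1), an Argonaute that carries microRNAs, rose by 1.50 between the knockouts (adjusted p = 7.52e-05) and by 1.71 against WT (adjusted p = 1.05e-06). Tnrc6a (GW182), the scaffold that links Argonaute to decay, rose by 1.39 (adjusted p = 1.88e-05) and 1.31 (adjusted p = 1.75e-06). Eif2c2 (Ago2), another Argonaute, differed by 0.50 between the knockouts (adjusted p = 0.257). It rose by 0.78 against WT (adjusted p = 0.0265), with groups that overlapped. Tarbp2, a partner of Dicer, fell by 0.75 between the knockouts (adjusted p = 0.000696) and rose by 0.49 in Dnmt1 KO against WT (adjusted p = 0.00472), and Prkra, another partner, fell by 0.80 in Dicer/Dnmt1 KO against WT (adjusted p = 0.000253). Prkra had also fallen in Dnmt1 KO against WT, by 0.72 (adjusted p = 0.00119), and differed by -0.08 between the knockouts (adjusted p = 0.746). Dis3l2, the nuclease that degrades uridylated let-7 precursors, fell by 0.47 in Dnmt1 KO against WT (adjusted p = 0.00101) and differed by 0.40 between the knockouts (adjusted p = 0.0105). In all, 3 rose and 5 fell between the knockouts (median 0.09, 9 not overlapping), where 36.3% of all genes were called and 43.2% did not overlap. Against WT, 5 rose and 5 fell in Dicer/Dnmt1 KO (median 0.16, 8 not overlapping), beside 61.9% called and 41.4% not overlapping. In Dnmt1 KO against WT 2 rose and 2 fell (median 0.17, 2 not overlapping), beside 41% and 23.2%. In both comparisons of Dicer/Dnmt1 KO, Dicer1, the gene removed by design, is counted among those that fell and did not overlap. The uridylating enzymes that act with LIN28, Zcchc11 and Zcchc6, differed by 0.39 and 0.14 between the knockouts (adjusted p = 0.156 and 0.306). Against WT, Zcchc11 rose by 0.59 in Dicer/Dnmt1 KO (adjusted p = 0.00874), while Zcchc6 differed by 0.14 (adjusted p = 0.174). Zcchc11, Zcchc6 and Eif2c2 are named in addition to the rule, after their values were seen. Rows with a symbol that starts with Mirlet7 numbered 0 in the table. Other symbols, such as that of miR-98, were not searched, and no level of let-7 itself is given here.

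**Figure D3:**
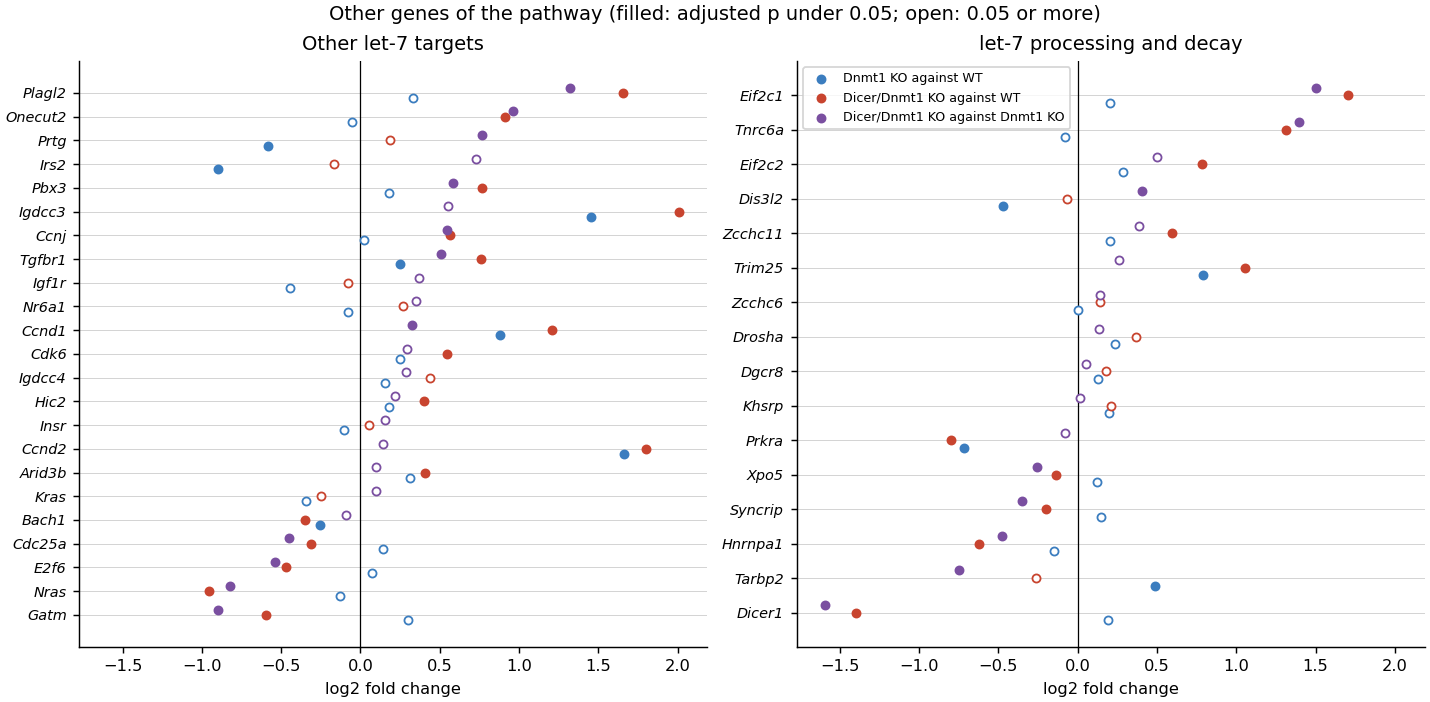
Log2 fold change (horizontal axis) of 23 of the 24 other let-7 targets (left) and 16 genes of let-7 processing and decay (right) in the 3 comparisons, sorted by the change between the knockouts. Filled points had an adjusted p under 0.05, as for Plagl2 at 1.32 and Eif2c1 at 1.50 between the knockouts.

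The 10 genes were set beside all genes that carry the same seed match. UTR length moves with the change between the knockouts, so genes were compared within classes of UTR length, as medians with no test. Among UTRs of 2 to 4 kb, the class of Lin28a, Hmga2 and Igf2bp3, the median log2 fold change in Dicer/Dnmt1 KO against Dnmt1 KO was 0.09 for 2288 genes without a let-7 match, 0.09 for 408 with 1 match and 0.09 for 70 with 2 or more. Among UTRs of 4 kb or more, the class of Lin28b and Igf2bp1, it was 0.20 for 570 genes, 0.21 for 195 and 0.13 for 62. Among UTRs of 1 to 2 kb, the class of Hmga1, Igf2bp2 and Trim71, it was 0.008 for 2921 genes without a match and 0.002 for 354 with 1. Under 1 kb, the class of Mycn and Myc, it was -0.10 for 5234 genes without a match and -0.05 for 204 with 1. In the classes of 1 kb and more, groups of at least 20 genes with let-7 matches thus had medians close to or below those of genes without. Under 1 kb the median with 1 match was the higher.

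Matches to the miR-290 family gave another picture in the same classes. At 2 to 4 kb the median was 0.05 for 1964 genes without a match, 0.16 for 670 with 1 and 0.32 for 132 with 2 or more. At 1 to 2 kb it was -0.01, 0.11 and 0.29, over 2745, 497 and 51 genes, and under 1 kb it was -0.11 without a match and 0.10 with 1. At 4 kb or more it was 0.15, 0.26 and 0.28. The 3 genes of the 10 with 1 such match were Lin28b at 0.09, Igf2bp1 at -0.06 and Mycn at 0.15, and none of these differences between the knockouts passed the test.

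**Figure D4:**
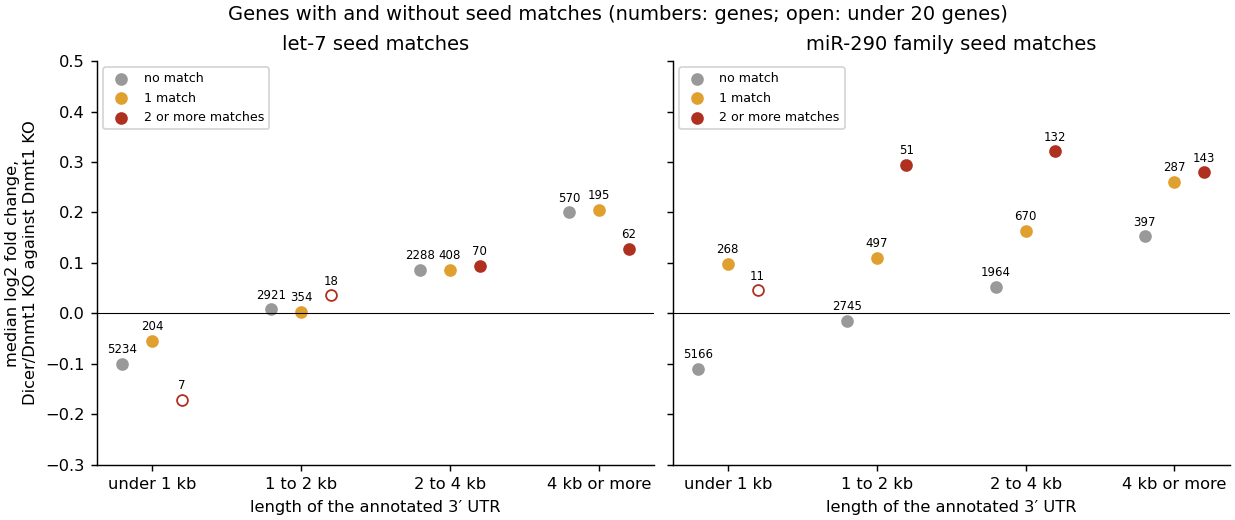
Median log2 fold change in Dicer/Dnmt1 KO against Dnmt1 KO (vertical axis) of genes without, with 1 and with 2 or more seed matches, by length of the annotated 3′ UTR, for let-7 (left) and the miR-290 family (right). Numbers give the genes and open points stand for fewer than 20. At 2 to 4 kb the medians are 0.09, 0.09 and 0.09 for let-7 and 0.05, 0.16 and 0.32 for the miR-290 family.

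The change between the knockouts also moved with transcript length over all genes. Its median was -0.29 for 759 genes with a longest transcript under 1 kb, -0.20 at 1 to 2 kb, -0.04 at 2 to 4 kb, 0.14 at 4 to 8 kb and 0.30 for 611 genes of 8 kb or more. Lin28a, with a transcript of 3505 bases, lay at -1.18 beside quartiles of -0.28 and 0.24 in its class, and Myc, with 2338 bases, at -1.71 in the same class. Igf2bp2, with 4952 bases, lay at 0.90 beside quartiles of -0.10 and 0.41, and Igf2bp3 at 0.43 just passed the upper one. Hmga1, the shortest of the 10 with 1898 bases, lay at -0.30 within its class quartiles of -0.46 and 0.10. Igf2bp1, with 8378 bases, lay at -0.06 below its class quartiles of 0.06 and 0.60. With the trend removed, Lin28a (-1.19), Myc (-1.62), Igf2bp2 (0.76) and Igf2bp3 (0.33) still passed between the knockouts, and Igf2bp1 (-0.36, limma BH adjusted p = 0.0249), Trim71 (-0.41, adjusted p = 0.0118) and Mycn (0.21, adjusted p = 0.044) were added. What the trend with length reflects was not tested.

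**Figure D5:**
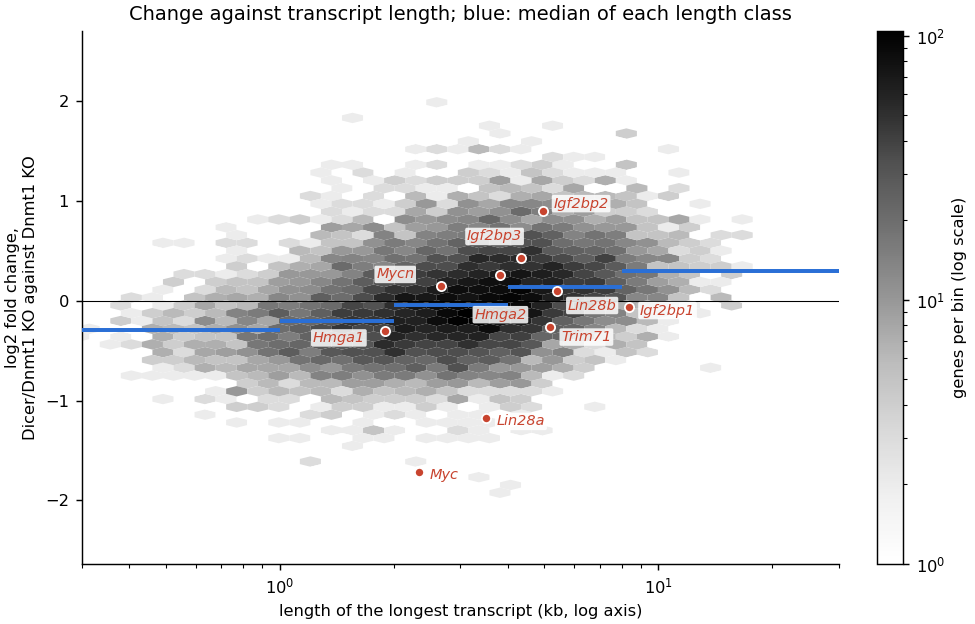
Log2 fold change in Dicer/Dnmt1 KO against Dnmt1 KO (vertical axis) against the length of the longest transcript (horizontal log axis, in kb) for 12882 of the 12892 tested genes, with 10 genes beyond 2.5 not drawn. Grey shading gives genes per bin, blue lines the class medians from -0.29 to 0.30, and red points the 10 genes, of which Lin28a and Myc lie well below their class.

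Across the 16 libraries, the genes whose level followed that of Lin28a most closely among 10236 compared were Slc39a10, Gja1, Orc1, Mcm10 and Wipi2, with Pearson's r of 0.98, 0.973, 0.968, 0.967 and 0.964. Slc39a10, a zinc importer, had means of 6.52, 6.45 and 5.69 in WT, Dnmt1 KO and Dicer/Dnmt1 KO, and Gja1, connexin 43, 6.57, 6.44 and 5.47. Orc1 and Mcm10 act in DNA replication. These genes share with Lin28a a lower mean in Dicer/Dnmt1 KO than in the other groups. The closest to Lin28b were Ttl, Map4k5, Spats2l, Sulf1 and Slc27a2, with r from 0.878 down to 0.796. Ttl, tubulin tyrosine ligase, had means of 3.40, 3.52 and 3.69. These values are descriptions over libraries that share depth and group.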

How the data were processed

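RNA-seq values of 16 mouse ESC libraries (8 WT, 4 Dnmt1 KO, 4 Dicer/Dnmt1 KO, grouped by their titles) were used. The authors trimmed total RNA reads, aligned them with TopHat to NCBIM37, discarded alignments with a mapping quality under 20 and quantified genes in SeqMonk. The submitters' processing notes name Trim Galore 0.3.5 and TopHat2 2.0.11. The deposited values are log2 RPM, in which a gene without reads is written as 0.9 read. A further 35 value columns of other samples were not used.

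A gene was tested if 4 or more libraries exceeded 1 RPM, a log2 RPM of 0, which 12892 genes did. Group means were fitted to those values with limma 3.58.1 in R 4.3.3, using its variance trend with mean level and no covariate, and p-values were BH adjusted over all tested genes. The script was tested on simulated data. Whole reads were recovered for 100% of values in each library, which held 31.5 to 52.5 M reads, and counting errors cover counting only. Annotation was GENCODE M1 on NCBIM37, matched by symbol and position, with lengths from the longest transcript. Each library counted as 1 replicate.

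The members and lists were chosen with earlier results of these data known. The genes named outside the 10 are, per comparison and list, up to 2 that rose most and 2 that fell most among those past the test whose groups did not overlap, the 5 genes most like Lin28a and Lin28b, and Dnmt1 and Dicer1, and 1 gene that this rule names is not reported here. There were 31 alternatives. Of these 16 left out 1 library each, and the others changed the handling of letters and numbers, the WT libraries used, the scaling, the pseudocount, the filter, the weights or the trend with transcript length.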

Additional observations from a re-analysis of the deposited data

Results flagged for a closer look

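Of 30 groups looked at (10 genes in 3 groups, of which chance alone flags about 1 in 20), 1 held a library that stood apart by Dixon's criterion. Hmga1 was 7.33 in Dnmt1 KO 1B, beside 7.07 to 7.11 in the other 3 Dnmt1 KO libraries, and its gap to the nearest took 0.842 of the range. Without that library Hmga1 in Dnmt1 KO differed from WT by -0.06, in place of 0.005, and did not pass in either case.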

How the results depend on the processing

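Of 30 values (10 genes in 3 comparisons), 13 passed the test. All 13 kept their direction in all 31 alternatives and 7 passed in each of them, namely Lin28a in Dicer/Dnmt1 KO against both other groups, Mycn in both knockouts against WT, Myc in Dnmt1 KO against WT and between the knockouts, and Hmga2 in Dicer/Dnmt1 KO against WT. Of the 17 others, 6 changed sign in an alternative, none of them past the threshold there, and 11 passed in at least 1 alternative.

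Counts moved with replicate handling, in which fewer libraries or fewer independent values are tested, and with the WT libraries used. With A and B averaged, letter A only and letter B only, the counts of the 10 genes called in Dnmt1 KO against WT were 3, 2 and 3 (5 as reported), of other let-7 targets 3, 2 and 3 (8), of processing genes 2, 0 and 1 (4) and of all genes 2288, 1833 and 1610 (5289). In Dicer/Dnmt1 KO against WT processing genes came to 6, 6 and 6 (10), other targets with letter A to 9 (17) and all genes to 5134, 4002 and 4813 (7985). Between the knockouts the 10 genes came to 2 with averaging and 2 with letter B (4), other targets to 4, 3 and 1 (11), processing genes to 4, 4 and 3 (8) and all genes to 1225, 951 and 667 (4682). With the correlation of A and B estimated (0.667), other targets came to 5 in Dnmt1 KO against WT and 7 between the knockouts, and all genes to 2723 and 2109. With WT numbers 3 and 4 only, other targets and processing genes came to 13 and 10 in Dnmt1 KO against WT and the 10 genes to 7 in Dicer/Dnmt1 KO against WT. Leaving out 1 library gave 3 to 7 of the 10 genes in Dnmt1 KO against WT, with 3 without Dnmt1 KO 2A or 2B. It gave 4 to 6 in Dicer/Dnmt1 KO against WT and 3 to 4 between the knockouts. All genes then came to 4054 to 5624, 7109 to 8368 and 3690 to 5194 in the 3 comparisons.

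With the replicate block, 7 of the 10 genes were called between the knockouts, and 7 also with the length trend removed. Of all 12892 genes these settings called 6690 and 4836 there, in place of 4682. The block changed calls in the other comparisons too: 7 and 4 of the 10 passed in Dnmt1 KO and Dicer/Dnmt1 KO against WT. Correlations of the deviations of libraries with the same number and letter in different groups ran from -0.42 to 0.37. They were over 0.1 in 4 of 12 pairs. Those 4 were WT with Dicer/Dnmt1 KO at 1A and 1B (0.37 and 0.31) and WT with Dnmt1 KO at 2A and 2B (0.30 and 0.24). Whether an equal number stands for a shared culture or batch cannot be told from these values. The share of higher genes among those called in Dnmt1 KO against WT was 57.3%, and 46.9% after quantile normalization (2540 higher, 2872 lower).

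The sign changed for Lin28b in Dnmt1 KO against WT with letter B only (-0.010) and with length removed (-0.016), and with length removed in Dicer/Dnmt1 KO against WT (-0.086) and Dnmt1 KO (-0.070). It changed for Hmga1 in Dnmt1 KO against WT with letter A only (-0.073), the replicate block (-0.16), median centring (-0.042), WT numbers 1 and 2 only (-0.16), without WT number 4 (-0.085) and leaving out 1 library (-0.056 to 0.057). For Trim71 in Dicer/Dnmt1 KO against WT the values were -0.034, -0.15, -0.010, -0.15, -0.12 and -0.037 to 0.12 in the same order, and -0.19 with length removed. For Igf2bp1 between the knockouts they were 0.036 with letter B only, 0.070 with quantile normalization and -0.16 to 0.033 leaving out 1 library. Beyond what a setting itself removes, the cause was not tested. Depth limits Myc most, with 80 to 526 reads.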
